A study of Homo sapiens with 4 samples.

Results

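The interleukin-6 (IL-6) cytokine family was followed through 10 genes of the raw count table, found by symbol: the ligands IL6, LIF and IL11, the receptor subunits IL6ST, IL6R, LIFR and OSMR, the transcription factor STAT3, and the STAT3 feedback and target genes SOCS3 and PIM1. All 10 were present among 39634 entries with values, each as a single row, and all 10 were abundant enough to be tested. They were compared in BEAS-2B, an established human bronchial epithelial line immortalised with viral sequences, grown in N2B27, a defined medium without serum. The control group was 2 libraries from cells carrying a control short hairpin RNA (shControl), and the other group was 2 libraries from cells carrying a hairpin against Fer (shFer), labelled as Fer knockdown. FER is a cytoplasmic tyrosine kinase with STAT3 among its reported substrates. The labels give no hairpin sequence, clone or harvest day, and do not state whether replicates were grown as separate cultures, so a p-value here reflects the spread between these libraries, which may be technical. In bulk RNA a change in the share of cells expressing a gene and in RNA per cell cannot be told apart.

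Cytokines of the IL-6 family signal through receptor complexes that share gp130, the product of IL6ST. IL-6 and IL-11 first bind their own alpha receptors, whereas leukaemia inhibitory factor (LIF) pairs gp130 with LIFR and oncostatin M pairs it with OSMR or LIFR. The complex activates JAK kinases, which phosphorylate STAT3, and STAT3 then induces target genes. One of them, SOCS3, binds gp130 and JAKs and ends the signal. Airway epithelium takes part in this system both as a source of IL-6 and LIF and as a responder during injury and infection. These libraries measure mRNA, so the phosphorylation of STAT3 was not measured.

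Library totals ran from 21422976 to 25169713 counts. Expression is given as counts per 1000000 (CPM) after TMM scaling, a correction for differences in composition between libraries. FER itself was at 16.3 and 21.2 CPM in the control libraries and at 17.8 and 20.1 CPM in the libraries labelled shFer. Its log2 fold change of 0.02 ± 0.17 (SE, adjusted p = 0.976) shows no lower FER mRNA, so the mRNA level goes against the label and each direction is that of the libraries as labelled. Mitochondrially encoded genes took 16.9% and 19.4% of the control counts and 9.62% and 9.37% of the counts of the other group. Of 6 epithelial markers 0 passed the test described next. KRT8, KRT18 and KRT19 overlapped between the groups (KRT8 at 34748 to 49090 counts), KRT7 was at 309 and 248 CPM in control and 211 and 212 in the other group, and CDH1 and EPCAM, both scarce, were at 0.45 and 0.46 on the log2 scale with both other libraries above both controls. The part of these markers in the members' values was not tested. Of 6 airway markers, 2 were abundant enough to be tested, both with a log2 fold change above 0, and 0 passed. Only 1 of the 6, the lung factor NKX2-1, had 0 counts in every library. Of 5 fibroblast markers 1 was tested (COL1A1, given below), and DCN and LUM had 0 counts in every library. A count of 0 allows up to 0.147 CPM by counting error alone.

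At a threshold of 0.05 on the adjusted p (Benjamini-Hochberg, from edgeR's quasi-likelihood fit over 15336 genes), 0 of the 10 genes passed, against 0.646% of all tested genes. Even so, 7 of the 10 had both libraries labelled shFer above both controls, against 25.8% of all tested genes, and in 0 of the 10 were both below both controls, against 23.4%. The 7 were the 3 ligands, the receptor subunits IL6ST and IL6R, and SOCS3 and PIM1. LIFR, OSMR and STAT3 were the 3 genes whose groups overlapped. The log2 fold change was above 0 for 8 of 10 genes (51.9% of all tested genes), with a median of 0.33 over the members and 0.01 over all tested genes. An unadjusted p under 0.05 was reached by 5 of 10, namely LIF, IL11, IL6R, SOCS3 and PIM1, against 17.7% of all tested genes. DESeq2 and limma-voom also called 0 of the 10, when they called 3.78% and 1.16% of all tested genes.

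To compare genes with each other, CPM was divided by the gene length given in the deposited table. Per kilobase, STAT3 was the most abundant member in control, at 25.7 ± 0.710 CPM per kb (SD, n = 2). OSMR followed at 22.4 ± 3.44, LIF at 18.8 ± 0.0246, IL6ST at 17.4 ± 2.05, SOCS3 at 15.5 ± 0.462 and IL11 at 11.1 ± 1.29 CPM per kb. The other members were lower, with PIM1 at 5.39 ± 0.640, IL6 at 4.83 ± 1.24, LIFR at 2.45 ± 0.550 and IL6R at 1.20 ± 0.241 CPM per kb. The span from STAT3 to IL6R was 21.4-fold. Neighbours in this order whose control libraries overlapped were LIF with IL6ST and PIM1 with IL6. IL6ST and OSMR were each above both IL6R and LIFR in every library. In the libraries labelled shFer, LIF stood second at 23.6 ± 1.51 CPM per kb, ahead of OSMR at 21.1 ± 0.267, without overlap. SOCS3 came next, at 18.4 and 21.6 CPM per kb, overlapping both OSMR and IL6ST (19.5 ± 0.841), and the order of the other members was as in control.

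**Figure D1:**
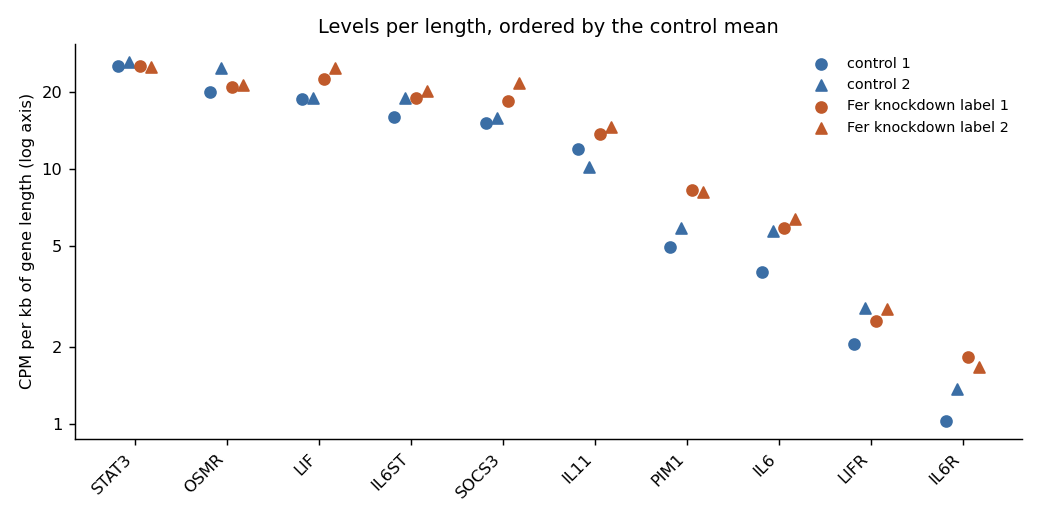
Levels of the 10 members in CPM per kb of gene length on a log axis, 1 point per library, with control in blue and the libraries labelled shFer in orange. STAT3 is highest and IL6R lowest in every library, and the control means span 21.4-fold.

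Among the ligands, LIF, which acts through the gp130 and LIFR pair, was the most abundant. LIF (ENSG00000128342, chromosome 22) was at 72.7 and 72.9 CPM in control and at 87.2 and 95.5 CPM in the libraries labelled shFer. The controls lay within 0.0027 of each other on the log2 scale, and both other libraries lay above them. The log2 fold change was 0.33 ± 0.13 (SE, 95% interval 0.05 to 0.61, adjusted p = 0.218). Exons of other genes cover 6.73% of LIF, and the overlapping LIF-AS2 had 172 and 105 counts in control and 164 and 238 in the other group, against 1487 to 2536 for LIF.

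IL11 (ENSG00000095752, chromosome 19), a cytokine that signals through IL11RA and gp130, was at 32.04 and 27.2 CPM in control and at 36.6 and 39.2 CPM in the libraries labelled shFer. The groups did not overlap, and control replicate 1 was the control nearer to the other group. Its log2 fold change was 0.36 ± 0.15 (SE, 95% interval 0.03 to 0.68, adjusted p = 0.246). It was 0.47 with control replicate 1 left out and 0.22 with control replicate 2 left out.

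IL6 (ENSG00000136244, chromosome 7), the founding cytokine of the family, rested on 167 and 256 counts in control and on 274 and 350 counts in the libraries labelled shFer. In CPM this was 8.17 and 11.8 in control against 12.1 and 13.2. Control replicate 2 therefore lay just under the other group, and the controls differed from each other by 0.53 on the log2 scale, where counting alone gives an SE of 0.144. This gave a log2 fold change of 0.34 ± 0.21 (SE, 95% interval -0.12 to 0.79, adjusted p = 0.433). With control replicate 1 left out it was 0.092, and with control replicate 2 left out 0.61. Exons of other genes cover 20.7% of the exonic bases of IL6, but the overlapping IL6-AS1 and STEAP1B had only 14 to 18 and 0 to 5 counts.

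The windows of 250 bases before the annotated start sites are shown for the ligands IL6 and IL11, whose groups did not overlap, because each holds a match to a motif of an inflammatory transcription factor. They were taken from RefSeq (GRCh38.p14), which gave 12 windows for 9 of the 10 members, and LIF was not matched. The motifs searched on both strands were TTCNNNGAA (STAT), TGANTCA (AP-1), the NF-kB string (GGG, any 2 bases, then TTTCC) and TGACGTCA (CRE), and none of these strings contains another. Capitals mark the match, and the IL6 window was ended before bases annotated as exonic.
IL6, chr7:22726950-22727146, plus strand: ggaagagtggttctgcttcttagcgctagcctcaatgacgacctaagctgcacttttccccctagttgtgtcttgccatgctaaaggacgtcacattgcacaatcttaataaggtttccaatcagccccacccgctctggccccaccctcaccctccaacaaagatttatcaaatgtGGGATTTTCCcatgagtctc
IL11, chr19:55370464-55370713, minus strand: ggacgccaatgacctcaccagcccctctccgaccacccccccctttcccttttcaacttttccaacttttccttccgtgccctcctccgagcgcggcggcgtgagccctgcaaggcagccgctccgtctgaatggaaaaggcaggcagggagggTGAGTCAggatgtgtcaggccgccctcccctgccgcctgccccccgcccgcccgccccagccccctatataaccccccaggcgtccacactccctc
The IL6 match to the NF-kB string starts 73 bases before the start site, and that string is held by 1.73% of 35116 windows of this length. The IL11 match to the AP-1 string starts 96 bases before the start site, and 6.57% of the windows hold one. The STAT string, also held by 6.57% of windows, was matched in 2 of the 3 LIFR windows, as TTCATCGAA and TTCCTTGAA. It was matched in no window of SOCS3, PIM1, STAT3 or the other members. The SOCS3 windows were chr17:78359668-78359917 and chr17:78360926-78361175, and the bases between them were not searched. A match outside the windows would not be seen, so these genes may hold STAT strings elsewhere. Of the 250 bases searched, exons of the same gene covered 168 in 1 SOCS3 window, 126 for STAT3, 150 for IL6R and 154 for OSMR. The CRE string (1.65% of windows) was matched in no member. These matches describe letters in short windows and were not tested for binding.

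Of the 4 receptor subunits, IL6ST and IL6R lay apart between the groups and LIFR and OSMR did not. IL6ST (ENSG00000134352, chromosome 5), which encodes gp130, was at 161 and 191 CPM in control and at 192 and 204 CPM in the libraries labelled shFer. Control replicate 2 nearly met replicate 1 of the other group. Its log2 fold change was 0.17 ± 0.13 (SE, 95% interval -0.12 to 0.45, adjusted p = 0.545). This became 0.046 when control replicate 1 was left out and 0.27 when control replicate 2 was. Exons of other genes cover 8.58% of IL6ST.

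IL6R (ENSG00000160712, chromosome 1), the IL-6 binding alpha receptor that also circulates in a soluble form, had 136 and 192 counts in control and 269 and 286 in the libraries labelled shFer. In CPM the controls were at 6.65 and 8.85 and the other libraries at 11.8 and 10.8, so the groups were apart. Its log2 fold change of 0.54 ± 0.20 (SE, 95% interval 0.10 to 0.99, adjusted p = 0.200) exceeded that of 92.1% of tested genes. The estimate was 0.35 when control replicate 1 was left out and 0.74 when control replicate 2 was. Some leukocytes also express IL6R. Of the leukocyte markers, CD3E had 0 counts in every library, PTPRC and LYZ had at most 6, and CD14 had 343 to 506, with the control libraries at both ends of that range.

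LIFR and OSMR, which are neighbouring coding genes on chromosome 5, overlapped between the groups. LIFR (ENSG00000113594), the LIF receptor, was at 25.1 and 34.5 CPM in control and at 30.9 and 34.2 CPM in the libraries labelled shFer, both between the controls. Its log2 fold change was 0.13 ± 0.17 (SE, 95% interval -0.26 to 0.51, adjusted p = 0.759). This became -0.090 with control replicate 1 left out and 0.35 with control replicate 2 left out. OSMR (ENSG00000145623), the oncostatin M receptor, was at 143 and 178 CPM in control and at 149.9 and 153 CPM in the other group, again between the controls. Its log2 fold change was -0.09 ± 0.14 (SE, 95% interval -0.39 to 0.22, adjusted p = 0.794). This became -0.24 with control replicate 1 left out and 0.057 with control replicate 2 left out. All 4 receptor subunits were higher in control replicate 2 than in control replicate 1, by 0.24 to 0.46 on the log2 scale.

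STAT3 (ENSG00000168610, chromosome 17) was at 219.6 and 228 CPM in control and at 220.4 and 218 CPM in the libraries labelled shFer, with 4490 to 5792 counts behind each value. Both libraries labelled shFer were within or just below the range of the controls. A log2 fold change of -0.03 ± 0.11 (SE, 95% interval -0.28 to 0.22, adjusted p = 0.923) was estimated.

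SOCS3 (ENSG00000184557, chromosome 17), the feedback inhibitor induced by STAT3, was at 41.4 and 43.2 CPM in control and at 50.2 and 59.2 CPM in the libraries labelled shFer. The controls were close together and both other libraries were above them, replicate 2 more so. The difference was 0.37 ± 0.14 on the log2 scale (SE, 95% interval 0.06 to 0.68, adjusted p = 0.212). It became 0.24 when replicate 2 labelled shFer was left out and 0.48 when replicate 1 was (adjusted p = 0.9998 and 0.834).

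PIM1, a serine/threonine kinase that promotes survival and is a STAT3 target in many cells, had the lowest p of the 10. PIM1 (ENSG00000137193, chromosome 6) had 306 and 384 counts in control and 568 and 650 in the libraries labelled shFer. In CPM the controls were at 14.97 and 17.7 and the other libraries at 25.01 and 24.5, so the groups were apart. On the log2 scale the controls differed from each other by 0.24 and the other libraries by 0.031. The log2 fold change was 0.60 ± 0.16 (SE, 95% interval 0.25 to 0.95), a 1.51-fold difference, with an adjusted p of 0.0994 and a place of 516 among 15336 genes ordered by p. PIM1 passed with library totals in place of TMM (0.76, adjusted p = 0.0414) and without a filter on low counts (0.60, adjusted p = 0.0255). Those settings called 2.89% and 4.14% of all tested genes. The log2 fold change of PIM1 was 0.48 with control replicate 1 left out and 0.70 with control replicate 2 left out. It was 0.58 and 0.61 with replicate 1 and replicate 2 labelled shFer left out. No exon of another gene overlaps PIM1, SOCS3, STAT3, IL6R or IL11 in GENCODE release 29. The PIM1 window before its start site is shown because PIM1 had the lowest p among the members. It is made of 79.6% G and C, and none of the 4 motifs was matched in it.
PIM1, chr6:37169902-37170151, plus strand: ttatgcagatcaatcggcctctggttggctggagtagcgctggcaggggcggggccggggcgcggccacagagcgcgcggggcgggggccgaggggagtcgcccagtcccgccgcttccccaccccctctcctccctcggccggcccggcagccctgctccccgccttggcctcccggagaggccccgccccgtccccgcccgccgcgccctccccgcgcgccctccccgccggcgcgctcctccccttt
Over the 4 libraries, the tested genes whose centred log2 CPM lay nearest to that of PIM1 were TNFAIP3, GCH1 and KDM7A-DT, with root mean square differences of 0.0074, 0.021 and 0.024. With 4 libraries such likeness is easily met, and 172 genes lay within 0.1.

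**Figure D2:**
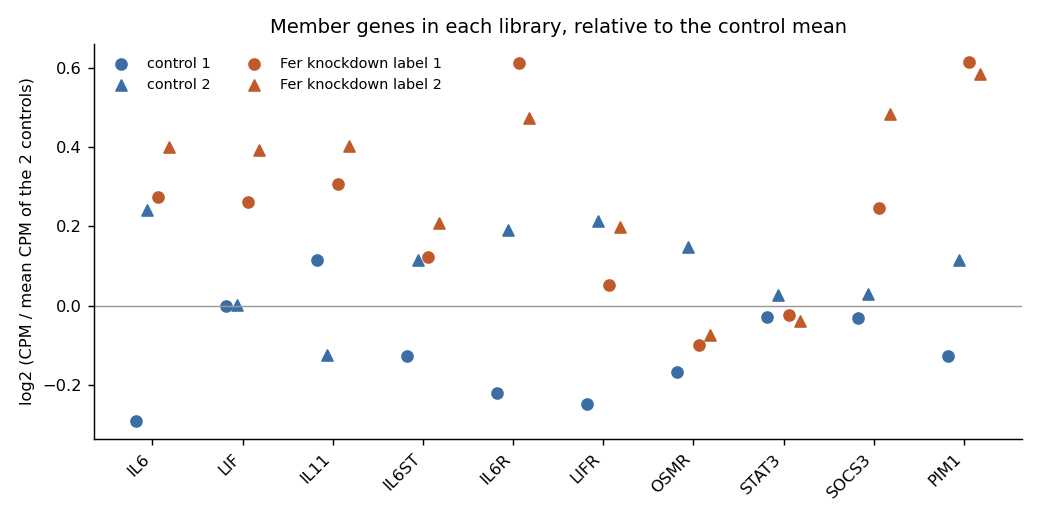
Each member's CPM in each library, as log2 of its ratio to the mean of the 2 controls, with circles for replicate 1 and triangles for replicate 2. The orange points of LIF, IL11, SOCS3, PIM1 and IL6R stand above both blue points, those of IL6 and IL6ST do so narrowly, and those of LIFR, OSMR and STAT3 do not.

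Ratios within a library do not depend on how libraries are scaled. Per 100 STAT3 reads there were 6.82 and 7.75 PIM1 reads in control and 11.3 and 11.2 in the libraries labelled shFer. SOCS3 gave 18.9 and 18.9 reads per 100 STAT3 reads in control against 22.8 and 27.1. For LIF the ratios were 33.1 and 31.9 in control against 39.6 and 43.8. Since STAT3 itself differed little in CPM between the groups, these ratios stay close to the CPM values. With library totals in place of TMM the median log2 fold change of all tested genes moved from 0.01 to 0.18, OSMR turned to 0.078 and STAT3 to 0.13, both below that median, and 9 of 10 members had both labelled libraries above both controls, against 45.3% of all tested genes. The share of mitochondrial reads moved with the groups, and its part in the members' differences was not tested. With those genes left out before scaling, the 10 members' log2 fold changes ran from -0.09 for OSMR to 0.59 for PIM1, and 0 of 10 passed, against 0.498% of all tested genes.

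**Figure D3:**
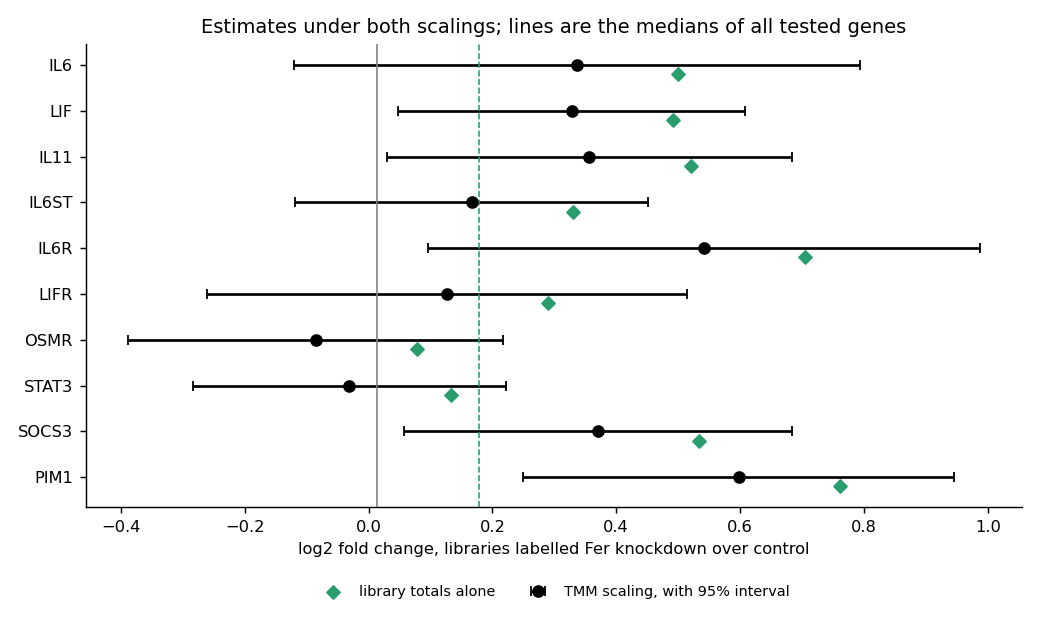
Log2 fold change of each member (libraries labelled shFer over control) with its 95% interval under TMM scaling in black, and the estimate with library totals alone as green diamonds. The grey and dashed green lines are the medians of all tested genes under each scaling (0.01 and 0.18), and the black intervals of PIM1, IL6R, LIF, IL11 and SOCS3 lie above 0.

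The calls depended on which library was left out. A fit with a control left out takes its spread between replicates from the libraries labelled shFer alone. With control replicate 1 left out, 5 of 10 members passed (LIF, IL11, SOCS3 and PIM1 higher, OSMR lower), when 29.5% of all tested genes did. With control replicate 2 left out, 7 of 10 passed, all higher (IL6, LIF, IL6ST, IL6R, LIFR, SOCS3 and PIM1), when 20.6% of all genes did. With replicate 1 or replicate 2 labelled shFer left out, 0 of 10 passed, when 0.713% and 0.352% of all tested genes did. With control replicate 1 and control replicate 2 left out, LIF was at 0.32 and 0.31, SOCS3 at 0.34 and 0.38, and PIM1 at 0.48 and 0.70. The control libraries were less alike than the others, with a median absolute log2 difference of 0.24 against 0.11 over all tested genes.

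**Figure D4:**
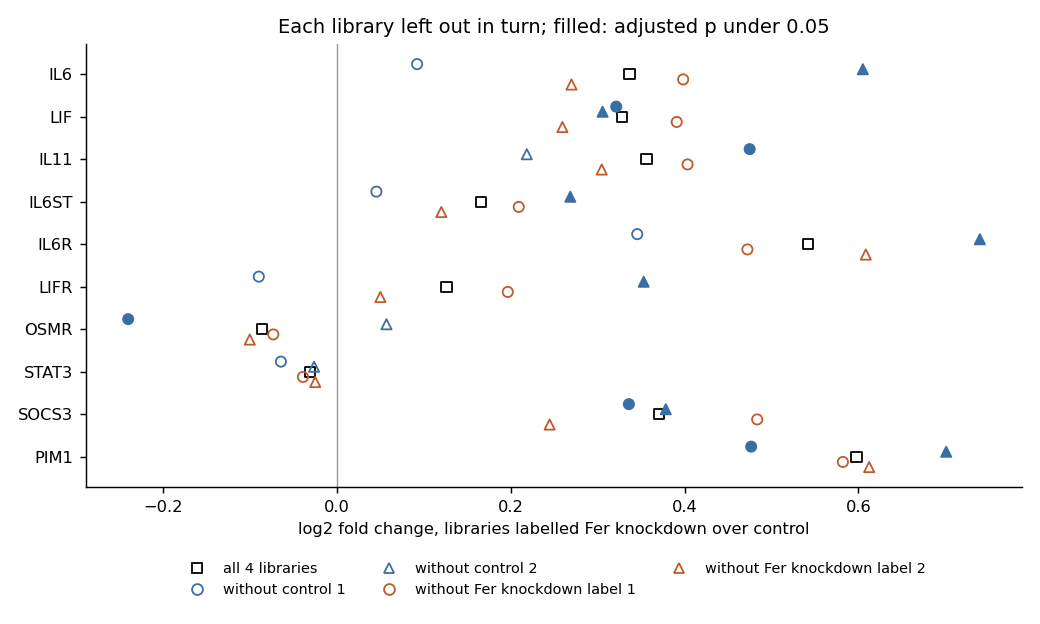
Log2 fold change of each member with all 4 libraries (black squares) and with each library left out, filled where the adjusted p is under 0.05. IL6, LIF, IL11, IL6ST, IL6R, SOCS3 and PIM1 are above 0 whichever control is left out, while OSMR and LIFR change side with the control used. Fits with a control left out take their spread from the libraries labelled shFer alone.

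The rest of the pathway, 83 genes in 7 lists, showed 1 call. Of the 68 tested, 1 rose (0.28% of all tested genes rose) and 0 fell, with a median log2 fold change of -0.03. Both libraries labelled shFer lay above both controls for 18 of the 68 and below for 19, close to the 25.8% and 23.4% of all tested genes.

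Other ligands were scarce or did not pass. Of 8, 5 were tested and 0 passed. CTF1 (cardiotrophin 1) was at 20.5 and 22.2 CPM in control and 17.4 and 15.9 CPM in the other group (-0.36, adjusted p = 0.256). OSM, the ligand of the abundant OSMR, had 5 and 5 counts in control and 11 and 8 in the other group, and IL31, whose receptor pairs IL31RA with OSMR, had 0 in every library. Of 4 other receptors 0 passed. IL11RA, the alpha receptor for IL-11, was at 14.3 and 13.8 CPM in control and at 19.7 and 19.5 CPM in the libraries labelled shFer (0.48 ± 0.15, SE, adjusted p = 0.151), with 17.7% exon overlap, and IL27RA was at 0.27 (adjusted p = 0.465). With control replicate 1 and control replicate 2 left out, CTF1 was at -0.42 and -0.33, and IL11RA at 0.50 and 0.43.

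The kinases, other STATs and inhibitors gave no call. Of 10 JAK and STAT genes 0 passed, with a median log2 fold change of 0.07. STAT2, of the interferon response, was at 0.25 and STAT5B, which relays growth hormone and cytokine signals, at 0.28 (adjusted p = 0.302 and 0.317). Of 15 inhibitors, which comprise the other SOCS proteins, CISH, the PIAS proteins and phosphatases, 0 passed, with a median of -0.03. SOCS4 was at 15.7 and 20.6 CPM in control and at 25.2 and 27.7 CPM in the other group (0.55, adjusted p = 0.148), and SOCS7 was at 0.48 (adjusted p = 0.174). With control replicate 1 and control replicate 2 left out, STAT2 was at 0.21 and 0.28, SOCS4 at 0.36 and 0.73, and SOCS7 at 0.35 and 0.60. Of 6 adaptors and receptor-shedding proteases 0 passed. GRB2, an adaptor to the RAS pathway, was at 0.16 (adjusted p = 0.508). Its partner SOS1 was at -0.24 (adjusted p = 0.611), and at -0.58 and 0.17 with control replicate 1 and control replicate 2 left out.

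Among genes that STAT3 can induce in other cells, 16 of 24 had a log2 fold change below 0, against 7377 of all 15336 tested genes. Of 25 listed, 24 were tested, 0 passed, and the median log2 fold change was -0.14. Both libraries labelled shFer lay below both controls for 11 of the 24, against 23.4% of all tested genes, and above for 4, against 25.8%. MUC1, an epithelial mucin, was at 33.7 and 35.2 CPM in control and at 24.8 and 23.0 CPM in the other group (-0.53, adjusted p = 0.108). NNMT, a methyltransferase, was at 120.1 and 87.7 CPM in control and at 144 and 150.4 CPM in the other group (0.51, adjusted p = 0.144). It was at 0.74 with control replicate 1 left out and at 0.27 with control replicate 2 left out. MUC1 was at -0.56 and -0.52 in the same fits. The fibroblast marker COL1A1, at 1287 to 1760 counts, was at 76.9 and 81.2 CPM in control and at 56.7 and 58.0 CPM in the other group. Its log2 fold change was -0.46 (adjusted p = 0.112), and COL1A2 was at 0 to 3 counts. The part of COL1A1 in these values was not tested. Of 15 acute-phase genes, whose main source is the liver, 4 were tested and SAA1 alone rose, from 69 and 46 counts in control to 197 and 194 (log2 fold change 1.54 ± 0.26, SE, adjusted p = 0.0378). SERPINA1, a protease inhibitor chosen after its values were seen, was at 60.8 and 51.5 CPM in control and at 36.3 and 31.2 CPM in the other group (-0.73, adjusted p = 0.0560). CRP had 0 counts in every library.

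**Figure D5:**
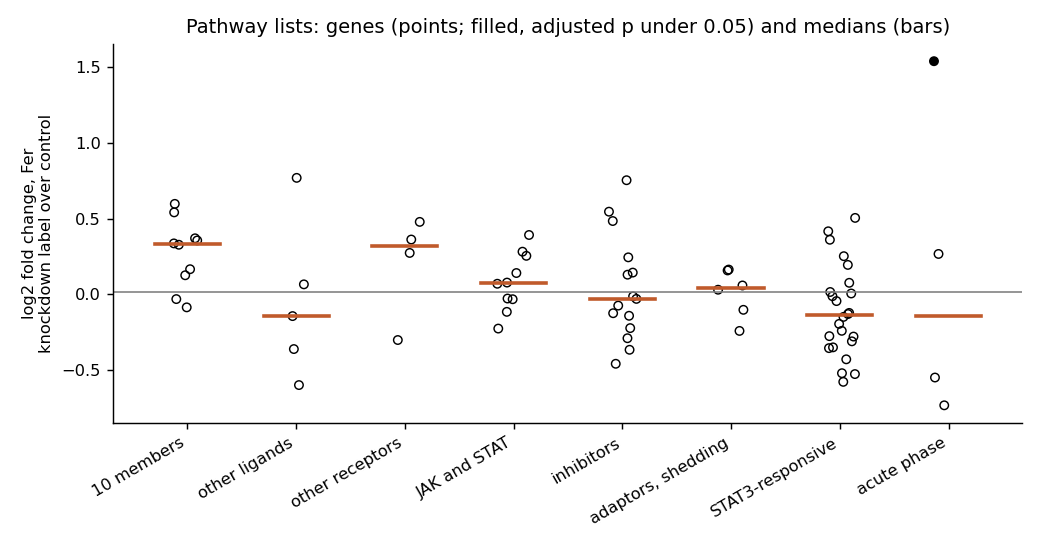
Log2 fold change of every tested gene in the 10 members and the 7 other lists, with list medians as orange bars and the median of all tested genes as a grey line. The members' median is 0.33 and that of the STAT3-responsive genes -0.14, and SAA1 is the only filled point.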

How the data were processed

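The authors deposited raw read counts per gene for 4 polyA-selected libraries, with gene identifiers, symbols and a length, per the file headers. The builds hg19 and mm10 and the tools HISAT2, featureCounts and DESeq2 are listed in the submitters' processing notes, with no version or role. As for annotation release and strand, these were not given in the sources used here. For replicate 1 labelled shFer the column name is a short form, matched because no other knockdown sample has that number. Of 39635 entries, 1 was blank. The length column was within 1% of the exon union of GENCODE release 29 for 78.0% of 39581 matched identifiers.

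The main test was that of edgeR 4.0.16 under R 4.3.3 (filterByExpr, which kept 15336 genes, TMM, quasi-likelihood test, two-sided, no block, 2 residual degrees of freedom), with Benjamini-Hochberg adjustment over all tested genes at 0.05. The test and the intervals also used 7.97 prior degrees of freedom, which come from the spread of all tested genes and not of the gene itself. SE was taken from the fold change and the F statistic, and 95% intervals are not adjusted. Alternatives used limma 3.58.1 (voom), DESeq2 1.42.0, other scalings, other filters, a block, no mitochondrial genes, and each library left out, and the counts of non-overlapping members under other scalings were added after seeing the data. A group left with 1 library is assumed to vary like the other group. When counts were simulated for this comparison (15118 genes fitted), the test recovered 29 of 67 genes changed 1.5-fold and 63 of 67 changed 2-fold. The same simulation gave 7 false calls. Its smallest change, 1.5-fold, exceeded the estimate of every member except PIM1, at 1.51-fold.

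The members, the 7 other lists and the tests were chosen with earlier results of these data known. Named genes were FER, all members, up to 4 called genes of each other list or else its 2 lowest p-values, and the 3 genes most like the member with the lowest p. Other genes named (OSM, IL31, CRP and the cell markers) were chosen after their values were seen. PECAM1 of the marker lists was not matched by symbol. A gene that the rule names and a cell marker are not reported here.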

Additional observations from a re-analysis of the deposited data

How the results depend on the processing

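Depth limits IL6 and IL6R most, with 136 to 350 counts a library. IL6, LIF, IL11, IL6ST, IL6R, SOCS3 and PIM1 kept their direction in all 13 alternatives. The reversals, none past the threshold, were LIFR at -0.090 without control replicate 1 (range 0.35 down to that value with a library left out), OSMR at 0.057 without control replicate 2 (lowest -0.24) and 0.078 with library totals, STAT3 at 0.13 with library totals, SOS1 at 0.17 without control replicate 2 (lowest -0.58), and FER, which ran from -0.16 to 0.19 with a library left out. Their cause was not tested. The 99 calls over all genes became 192 with upper-quartile factors, 178 with limma-voom, 580 with DESeq2, 76 without mitochondrial genes (41 higher and 35 lower), 993 without a filter (where the members called became 1), and 443 with library totals (396 higher and 47 lower, against 43 and 56 with TMM, and 1 member), and ran from 56 to 4734 with a library left out, where members called ran from 0 to 7. The 1 call in the pathway lists became 2 with upper-quartile factors, 2 with DESeq2, 2 with library totals and 6 without a filter, and ran from 1 to 32 with a library left out. The replicate block gave 990 calls, 1 member (PIM1, adjusted p = 0.0172) and 6 pathway genes, but same-numbered libraries deviated together little (correlation over genes of 0.037), so the numbers were not taken as pairs.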
